A study of Mus musculus with 16 samples.

Results

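The 35 genes described here encode the folding machinery of the endoplasmic reticulum (ER) and the unfolded protein response that adjusts it. They were taken from a list of names that was drawn up with earlier results of these data known and that used no measured value as a criterion, and each one had a row among the 24421 gene symbols counted in every library. QuantSeq, which sequences the 3′ end of each mRNA, was applied to myeloid-derived suppressor cells (MDSCs), immature myeloid cells that restrain T cells in tumor-bearing hosts. Cells came from spleens of C57BL/6 mice, 4 wild type (WT) and 4 Nlrp3-/-, all of which carried subcutaneous B16.F10 melanoma, and 1 monocytic (M-MDSC) and 1 granulocytic (G-MDSC) library was made per mouse, 16 in all. M-MDSCs were Ly6C+ Ly6G- and G-MDSCs Ly6G+ cells among CD11b-high cells. In the Nlrp3-/- line an EGFP cassette with a polyadenylation signal interrupts Nlrp3 in every cell of the animal, so no difference can be assigned to the sorted cells alone. The study's methods state that mice were matched for sex and age, and the age of the single mouse is not given in the sources used here. Per these methods C57BL/6J mice were purchased, while the Nlrp3-/- line, on a C57BL/6 background, came from another laboratory. The study also reports reduced B16.F10 tumor growth in Nlrp3-/- mice. The part of mouse source and tumor size in the genotype differences was not tested.

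In the ER lumen, BiP (Hspa5) and GRP94 (Hsp90b1) hold newly made chains, calreticulin and calnexin retain glycoproteins, and protein disulfide isomerases form their disulfide bonds. When unfolded protein accumulates, the sensors IRE1 (Ern1), PERK (Eif2ak3) and ATF6 raise chaperone and degradation genes through XBP1 and ATF6, while PERK slows translation and raises ATF4, CHOP (Ddit3) and their targets. IRE1 acts by splicing Xbp1 mRNA, PERK by phosphorylation and ATF6 by cleavage, none of which counts at mRNA 3′ ends measure.

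Libraries held 2295967 to 6079866 counts. Levels are given as CPM, the share of a library's counts that fell on a gene, with TMM scaling over all 16 libraries. In this unit 3 counts corresponded to 0.349 to 1.17 CPM, depending on the library. Nlrp3 stood at 40.7 to 88.9 CPM in WT and 0.514 to 1.88 CPM in Nlrp3-/- M-MDSCs, and at 252 to 331 against 5.51 to 13.6 CPM in G-MDSCs, which matched the labels of all 16 libraries. Summed over 9 neutrophil genes, G-MDSC libraries had 113895 CPM or more, while M-MDSC libraries had 2537 CPM or less except WT replicate 2 with 8727 CPM. Summed over 5 promyelocyte granule genes, M-MDSCs had 60.9 to 305 CPM and G-MDSCs 1.86 to 11.0 CPM, and WT replicate 2 was again the highest M-MDSC library. Of 5 melanoma genes, Tyr, Mlana and Tyrp1 were at 0 in every library. Pmel had 0.141 to 0.372 CPM in WT M-MDSCs and at most 1.45 CPM, in Nlrp3-/- G-MDSCs. Dct reached at most 0.677 CPM, in WT G-MDSCs.

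The ER stress response element (ERSE), the classical site of ATF6 in chaperone promoters, was read in the RefSeq promoter table (GRCm38.p6, 250 bases before to 50 after the start), where 30 of the 35 genes had an entry. Written as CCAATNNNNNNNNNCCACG and searched on both strands, it matched 8 of the 30 promoters (26.7%), against 34 of the 27025 promoters of the table (0.126%) and 2 of 157 promoters of other listed genes of the pathway (1.27%). The 8 were Hspa5, Hsp90b1, Dnajc3, Calr, Canx, Pdia6, Creld2 and Syvn1. Of these, 5 are printed 5′ to 3′ along the gene's strand because the same element stands before genes with different patterns, namely Hspa5, which was not lower in G-MDSCs, Hsp90b1 and Dnajc3, which were lower in Nlrp3-/- cells, Pdia6, which was lower in G-MDSCs, and Syvn1, which varied most between mice. Capitals mark the 5 fixed letters at either end of each match, and the second match of Hsp90b1 reads on the opposite strand.
Hspa5 (chr2:34772005-34772063, + strand): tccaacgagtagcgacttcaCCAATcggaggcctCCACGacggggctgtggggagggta
Hsp90b1 (chr10:86705513-86705676, - strand): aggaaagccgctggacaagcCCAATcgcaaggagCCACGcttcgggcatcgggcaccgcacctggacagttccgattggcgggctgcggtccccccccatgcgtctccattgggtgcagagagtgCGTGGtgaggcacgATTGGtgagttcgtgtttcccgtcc
Dnajc3 (chr14:118937807-118937865, + strand): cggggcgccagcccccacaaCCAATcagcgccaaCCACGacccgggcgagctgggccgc
Pdia6 (chr12:17266471-17266529, + strand): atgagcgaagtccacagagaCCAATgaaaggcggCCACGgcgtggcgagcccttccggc
Syvn1 (chr19:6046512-6046570, + strand): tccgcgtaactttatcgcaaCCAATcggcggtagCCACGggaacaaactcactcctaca
A match describes these letters and not occupancy. The XBP1 element TGACGTGG matched Vcp alone of the 30 (3.33%, against 2.55% of the other pathway genes and 0.574% of all promoters), and the amino acid response core TGATGNAA, which ATF4 can bind, matched Trib3, Asns and Herpud1 (10%, against 8.92% and 4.06%).

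The first question was whether loss of Nlrp3 altered the ER folding genes of M-MDSCs. The chaperones Hsp90b1 and Dnajc3 and the oxidoreductase Pdia3 were lower in Nlrp3-/- M-MDSCs, and the translocon channel gene Sec61a1 was higher. A gene was called when the edgeR quasi-likelihood test gave a Benjamini-Hochberg adjusted p under 0.05 and the fold change exceeded 1.5. By this rule 3 of 33 genes tested were lower, where 7.10% of all 9986 genes tested were, and 1 was higher, where 3.51% were, so that the counts lie near the background of the comparison. By library size alone 2 genes were higher and 2 lower, where 6.85% and 5.7% of all genes were and the median of all genes was 0.17, and with DESeq2's size factors 0 were higher and 3 lower, where 2.96% and 7.42% of all genes were. Trib3 and Asns did not pass the filter on low counts here. The median log2 fold change was -0.17 over the 33 genes and 0.07 over all genes tested.

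Hsp90b1, the ER-resident HSP90, stood at 347, 330, 314 and 424 CPM in the 4 WT and at 266, 136, 93.6 and 130 CPM in the 4 Nlrp3-/- M-MDSC libraries. Every Nlrp3-/- library lay below every WT library, with replicate 1 nearest to them. The log2 fold change was -1.13 ± 0.29 (SE; adjusted p = 0.0292), and with Nlrp3-/- replicate 1 left out -1.58 (adjusted p = 0.00128). The call was lost without WT replicate 1, 2, 3 or 4 or without Nlrp3-/- replicate 3 or 4 (adjusted p = 0.0524 to 0.0899 by edgeR).

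Dnajc3 encodes p58IPK, a BiP co-chaperone that also restrains PERK. Its level was 144, 124, 154 and 141 CPM in WT and 85.6, 92.5, 102 and 72.6 CPM in Nlrp3-/- M-MDSCs. The groups did not overlap, and the log2 fold change was -0.65 ± 0.15 (adjusted p = 0.0204). Without WT replicate 3 or 4 or Nlrp3-/- replicate 4 the adjusted p was 0.0595 to 0.0692 by edgeR.

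Pdia3 encodes ERp57, the isomerase that works with calreticulin and calnexin and in the peptide-loading complex. WT M-MDSCs had 286, 184, 170 and 296 CPM and Nlrp3-/- M-MDSCs had 106, 132, 177 and 105 CPM. Nlrp3-/- replicate 3 lay above WT replicate 3, so the groups overlapped, and the log2 fold change was -0.82 ± 0.23 (adjusted p = 0.0390). Without WT replicate 1 or 4 or Nlrp3-/- replicate 2 or 4 the adjusted p was 0.0722 to 0.122 by edgeR.

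Sec61a1 encodes the pore through which chains enter the ER. The 4 WT M-MDSC libraries had 285, 218, 260 and 230 CPM and the 4 Nlrp3-/- libraries 259, 377, 591 and 411 CPM. Of the Nlrp3-/- libraries, replicate 1 lay within the WT range and the other three above it, and the log2 fold change was 0.74 ± 0.21 (adjusted p = 0.0459). Only without Nlrp3-/- replicate 1 or WT replicate 1 did the call hold among the 8 fits that leave out a library, and the adjusted p in the other six was 0.0904 to 0.133 by edgeR.

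The same question was asked in G-MDSCs. Pdia3, Dnajc3 and Hsp90b1 were lower in Nlrp3-/- cells, that is 3 of 35 genes tested, where 11.7% of all 9273 genes tested were lower. Sec61a1 and Derl2 were higher, 2 of 35, where 4.70% of genes were. The median log2 fold change was 0.04 over the 35 genes and 0.03 over all genes, and by library size alone, with the median of all genes at 0.16, 3 were higher and 2 lower, where 8.55% and 9.21% of all genes were. The subsets were sorted from the same 8 mice, so the comparisons are not independent of each other. Of the 33 genes tested in both, 1 was higher and 3 were lower in both, where 1.11% and 6.22% of the 8823 genes tested in both were.

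Pdia3 had 101, 149, 76.1 and 100 CPM in WT and 52.7, 53.6, 53.9 and 64.3 CPM in Nlrp3-/- G-MDSCs. The groups did not overlap and the Nlrp3-/- libraries lay close together. The log2 fold change was -1.02 ± 0.21 (adjusted p = 0.00423), and the call held in all 18 alternative fits, the largest adjusted p being 0.0391 by edgeR.

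Dnajc3 had 80.1, 72.1, 74.9 and 68.9 CPM in WT and 51.1, 48.4, 44.1 and 43.8 CPM in Nlrp3-/- G-MDSCs, again without overlap. Its log2 fold change was -0.74 ± 0.16 (adjusted p = 0.00633), and it was called in each of the 8 fits that leave out a library. The within-group standard deviation of Dnajc3 was 0.14 on the log2 scale, against a median of 0.34 over the 35 genes.

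Hsp90b1 had 131, 87.7, 119 and 142 CPM in WT and 106, 62.2, 50.6 and 64.5 CPM in Nlrp3-/- G-MDSCs. Nlrp3-/- replicate 1 lay within the WT range, as the highest of its group in both subsets. The log2 fold change was -0.85 ± 0.23 (adjusted p = 0.0199), and without WT replicate 4 or Nlrp3-/- replicate 2, 3 or 4 the adjusted p was 0.0602 to 0.0671 by edgeR.

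Sec61a1 had 209, 99.2, 108 and 122 CPM in WT and 193, 226, 281 and 251 CPM in Nlrp3-/- G-MDSCs. WT replicate 1 lay within the Nlrp3-/- range and the rest of the WT libraries below it. The log2 fold change was 0.74 ± 0.22 (adjusted p = 0.0304), and the call was lost without WT replicate 2, 3 or 4 or Nlrp3-/- replicate 2, 3 or 4 (adjusted p = 0.0649 to 0.0857 by edgeR).

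Derl2, one of the derlins that move misfolded chains out of the ER, had 47.1, 31.1, 40.2 and 32.7 CPM in WT and 63.1, 63.4, 72.5 and 50.4 CPM in Nlrp3-/- G-MDSCs. The groups did not overlap, and the log2 fold change was 0.64 ± 0.20 (adjusted p = 0.0373). Without WT replicate 2 or 4 or Nlrp3-/- replicate 1, 2 or 3 the adjusted p was 0.0629 to 0.102 by edgeR. Its relative Derl1 did not reach the fold minimum in either subset, with log2 fold changes of 0.52 ± 0.15 in M-MDSCs (adjusted p = 0.0451) and 0.49 ± 0.18 in G-MDSCs (adjusted p = 0.0725, edgeR). With scaling by library size it was called in both (0.62 and 0.60).

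**Figure D1:**
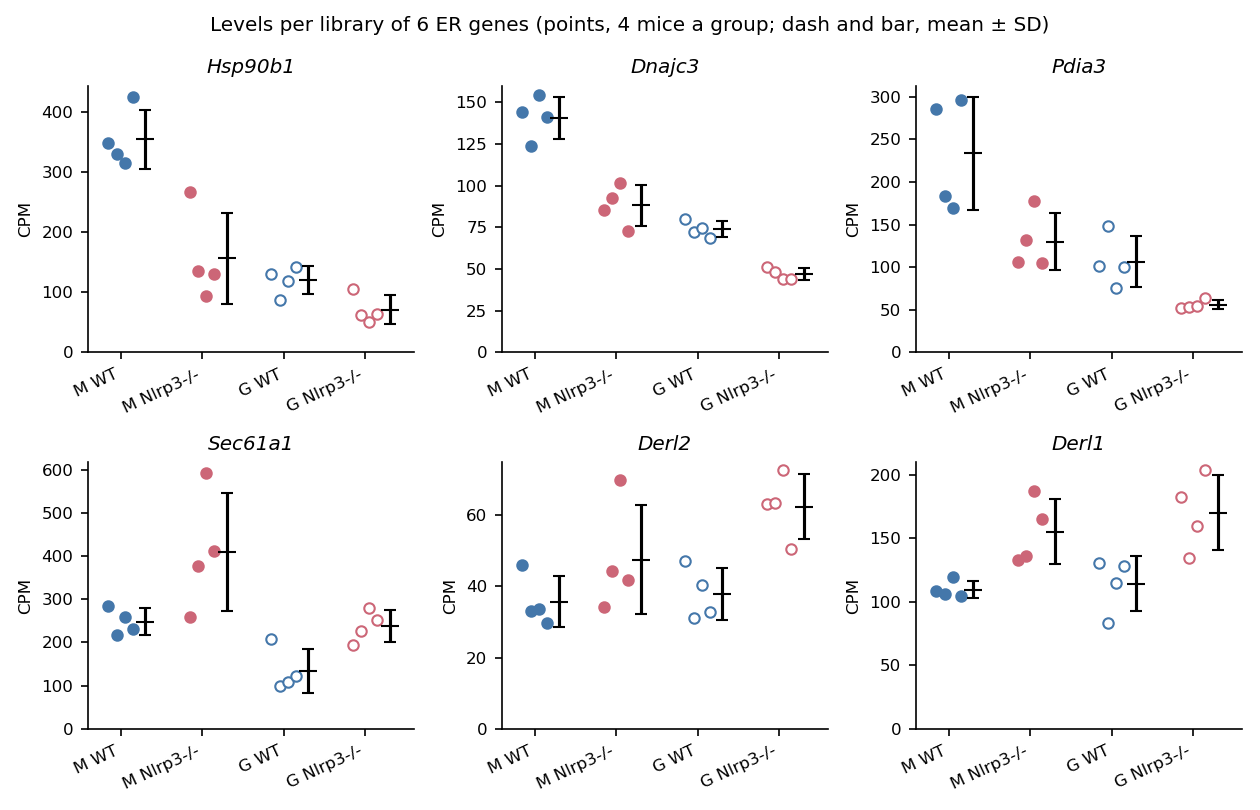
CPM of 6 ER genes in each library (4 mice per group, M-MDSCs filled and G-MDSCs open; dash and bar, mean ± SD of the 4 libraries). Hsp90b1, Dnajc3 and Pdia3 sat lower in Nlrp3-/- than in WT cells of both subsets, and Sec61a1 sat higher, with overlap of single libraries in Hsp90b1, Pdia3 and Sec61a1.

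The libraries of the genotypes also differed in base composition. The mean deviation of the 2129 genes richest in GC minus that of the 2127 poorest was -0.41 to -0.06 on the log2 scale in WT and 0.07 to 0.48 in Nlrp3-/- M-MDSCs, and it was -0.46 to -0.17 against 0.24 to 0.41 in G-MDSCs. Transcripts of Hsp90b1, Dnajc3 and Pdia3 hold 42.1%, 43.2% and 46.9% GC and that of Sec61a1 53.9%. With a correction for GC content and length in each library, Hsp90b1 in M-MDSCs (-0.96, adjusted p = 0.0447) and Pdia3 in G-MDSCs kept their calls, and Derl2 in G-MDSCs, whose transcript has 42.9% GC, was 0.95 higher (adjusted p = 0.00952). Sel1l, the scaffold of the HRD1 ligase, became a call in both subsets (0.61, adjusted p = 0.0343, and 0.66, adjusted p = 0.0206). Dnajc3 was then not called in M-MDSCs (-0.36, adjusted p = 0.173) or in G-MDSCs (-0.38, adjusted p = 0.145). Under the same correction Pdia3 in M-MDSCs (-0.77, adjusted p = 0.0736), Hsp90b1 in G-MDSCs (-0.61, adjusted p = 0.0902) and Sec61a1 in M-MDSCs and in G-MDSCs (0.52 in both, adjusted p = 0.114 and 0.120) also missed the threshold. All these adjusted p values come from edgeR's quasi-likelihood test. Over all genes tested, the share called fell with the correction from 10.6% to 6.65% in M-MDSCs and from 16.4% to 10.3% in G-MDSCs.

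Marker genes moved with genotype as well. Summed over 8 proliferation genes, M-MDSCs had 179 to 582 CPM in WT and 84.1 to 165 CPM in Nlrp3-/- mice, and G-MDSCs 143 to 478 and 66.2 to 221 CPM. A sum over 15 dendritic cell and macrophage genes was 587 to 945 CPM in WT and 1200 to 1398 CPM in Nlrp3-/- G-MDSCs, where Xcr1 was at 0, and 312 to 562 against 348 to 531 CPM in M-MDSCs. Of these genes 5 of 9 tested were higher in Nlrp3-/- G-MDSCs, and in M-MDSCs 5 of 11 were higher and 1 lower. The sum of 6 monocyte genes was 628 to 928 CPM in WT and 1010 to 1208 CPM in Nlrp3-/- G-MDSCs, and that of 7 eosinophil and basophil genes 27.1 to 51.8 against 57.8 to 65.3 CPM, both without overlap. In M-MDSCs these sums were 4622 to 6922 against 6337 to 8772 CPM and 4.64 to 24.9 against 24.5 to 68.9 CPM. The 8 T and NK cell genes summed to 65.4 to 94.9 CPM in WT and 86.9 to 172 CPM in Nlrp3-/- M-MDSCs and to 104 to 157 against 144 to 179 CPM in G-MDSCs. Of 8 erythroid genes the 4 globin genes were at 0, and the median log2 fold change of the other four was -0.88 in M-MDSCs and -1.72 in G-MDSCs, with none called. The 9 B and plasma cell genes found in the files, whose cells carry a large ER, summed to 257 to 500 CPM in M-MDSCs and 288 to 427 CPM in G-MDSCs over both genotypes. In bulk samples fewer cells of a type and less RNA per cell cannot be told apart, and the part of these marker genes in the ER results was not tested.

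By role, no more than 2 genes of one group were called in a genotype comparison. Among the 7 lumenal chaperones and co-chaperones, Hsp90b1 and Dnajc3 were called in each subset and the other five in neither, BiP among them. Hspa5 stood at 880, 777, 616 and 872 CPM in WT and 527, 685, 806 and 742 CPM in Nlrp3-/- M-MDSCs, and at 1391, 1031, 877 and 1154 against 1084, 1348, 1175 and 1731 CPM in G-MDSCs. These groups overlapped in both subsets, with log2 fold changes of -0.17 ± 0.17 and 0.18 ± 0.19. Hyou1, Dnajb11 and Sdf2l1 had log2 fold changes of -0.56, -0.16 and -0.22 in M-MDSCs and of 0.90, 0.39 and 0.67 in G-MDSCs, none of them called.

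The lectin chaperones were not called. Calr had 460, 258, 290 and 350 CPM in WT and 217, 227, 280 and 272 CPM in Nlrp3-/- M-MDSCs, and 236, 172, 152 and 150 against 169, 147, 178 and 177 CPM in G-MDSCs, with overlap in both (log2 fold change -0.42 ± 0.19 and -0.17 ± 0.17). Canx in G-MDSCs passed the adjusted p (0.0271, edgeR) with a log2 fold change of -0.57 ± 0.16, just under the fold minimum, and all 4 Nlrp3-/- libraries (52.0 to 61.2 CPM) lay below all 4 WT libraries (71.0 to 87.5 CPM). Of the oxidoreductases other than Pdia3, Pdia4 had the largest difference, with log2 fold changes of -1.03 ± 0.37 in M-MDSCs (adjusted p = 0.0913) and -1.01 ± 0.39 in G-MDSCs (adjusted p = 0.0855), at 13.7 ± 7.97 against 28.2 ± 10.0 CPM and 11.2 ± 3.69 against 21.1 ± 10.7 CPM (SD, n = 4). Pdia6, P4hb and Ero1l were not called in either subset.

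None of the 3 sensors was called, though all had negative log2 fold changes, from -0.71 (Eif2ak3) to -0.55 (Atf6) in M-MDSCs and from -0.58 (Atf6) to -0.37 (Ern1) in G-MDSCs. For Atf6 the Nlrp3-/- libraries lay below the WT libraries in both subsets, at 48.9 to 85.3 against 87.3 to 117 CPM and 20.7 to 33.8 against 34.7 to 45.6 CPM (edgeR adjusted p = 0.0816 and 0.0759). Xbp1 had 74.1, 146, 141 and 105 CPM in WT and 147, 63.0, 33.2 and 68.9 CPM in Nlrp3-/- M-MDSCs, and 46.1, 50.1, 137 and 130 against 134, 72.1, 54.9 and 49.3 CPM in G-MDSCs. Its spread within each group covered most of the range of both, and the log2 fold changes were -0.53 ± 0.38 and -0.31 ± 0.38.

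Atf4 had 355, 364, 342 and 355 CPM in WT and 209, 435, 448 and 371 CPM in Nlrp3-/- M-MDSCs, and 695, 406, 421 and 524 against 443, 559, 541 and 713 CPM in G-MDSCs, with a log2 fold change of 0.06 in each, which was -0.26 and -0.33 with the correction for GC content and length. Ddit3 had 58.0, 57.7, 46.9 and 69.6 CPM in WT and 31.8, 67.4, 81.0 and 94.4 CPM in Nlrp3-/- M-MDSCs, which overlapped (log2 fold change 0.26 ± 0.27). In G-MDSCs Ddit3 stood at 452, 334, 218 and 288 CPM in WT and 345, 348, 465 and 462 CPM in Nlrp3-/- mice, a log2 fold change of 0.24 ± 0.21. Nlrp3-/- replicate 1 was the lowest of its M-MDSC group for Atf4, Ddit3 and Hspa5 and the highest for Xbp1 and Hsp90b1. Of the CHOP and ATF4 targets, Trib3 and Asns were below the filter in M-MDSCs and Ppp1r15a, which restores translation by directing eIF2 dephosphorylation, had -0.95 ± 0.39 there (adjusted p = 0.13), and none of the 3 was called in G-MDSCs. Of the 7 degradation genes only Derl2 was called. Of the other six, Sel1l had an uncorrected log2 fold change of 0.40 in both subsets (edgeR adjusted p = 0.107 and 0.105) and Vcp, the ATPase that extracts the chains, -0.28 and -0.43. The secreted proteins Manf and Creld2 and the translocon genes Sec61b and Ssr1 were not called.

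**Figure D2:**
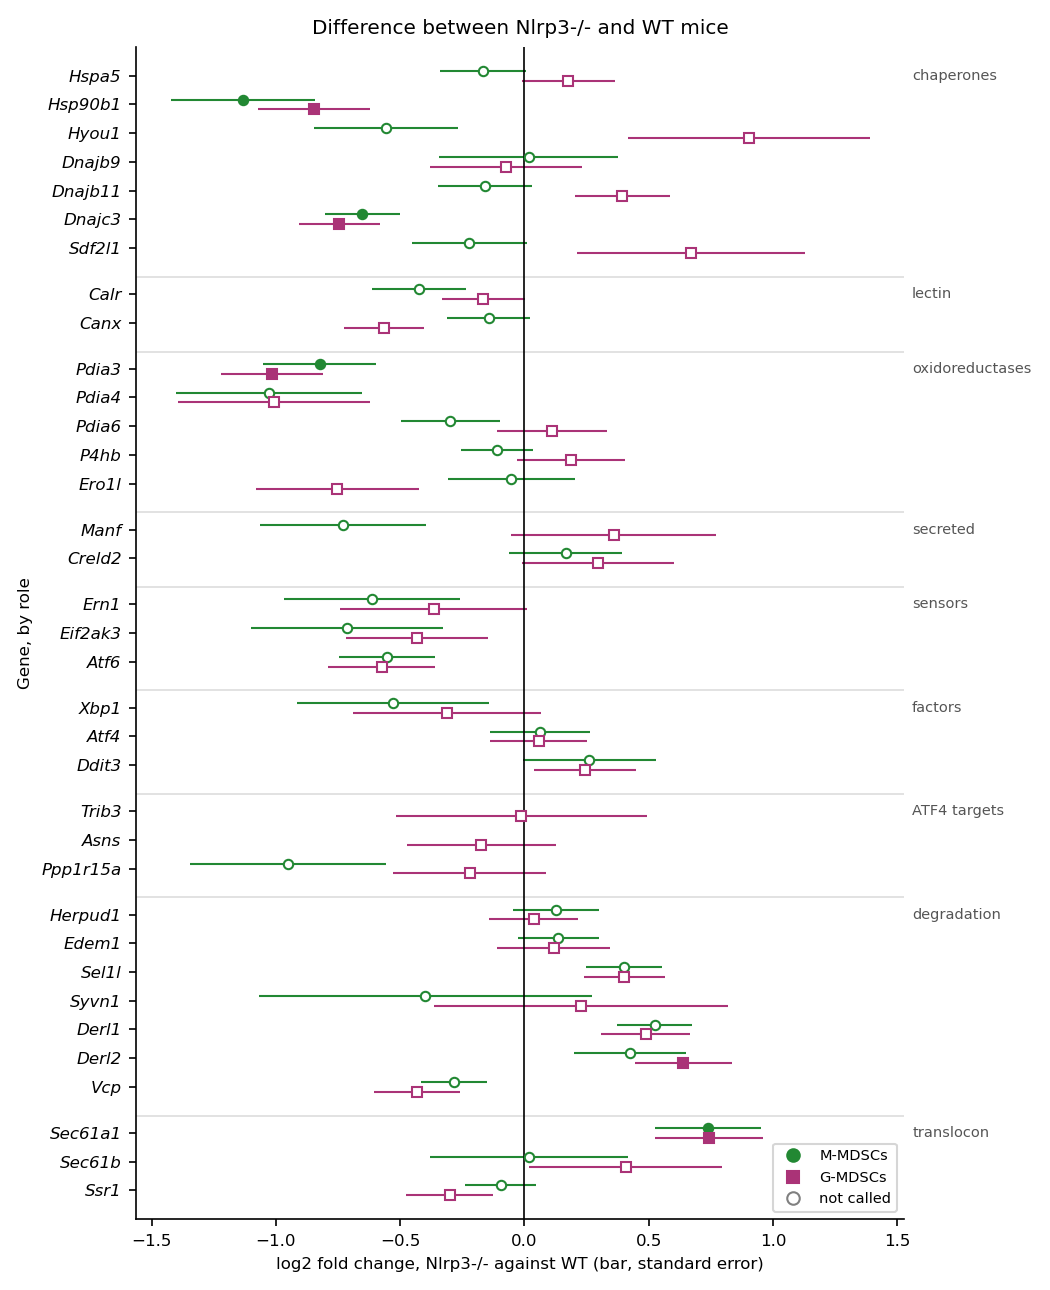
Log2 fold change of Nlrp3-/- against WT for each gene by role, in M-MDSCs (circles) and G-MDSCs (squares), with standard errors; filled symbols passed the adjusted p and the fold minimum. Filled symbols are Hsp90b1, Dnajc3, Pdia3 and Sec61a1 in both subsets and Derl2 in G-MDSCs, from -1.13 to 0.74.

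A model over the 16 libraries tested whether the genotype difference itself differed between the subsets. No gene of the 35 passed, where 0.0280% of all 10696 genes did, and 5 of the 35 had an unadjusted p under 0.05. That count of 5 is given without the share of all genes under the same p and is not read as an excess. DESeq2 likewise called 0 of the 35. Ranked by p, Hyou1, a BiP nucleotide exchange factor, came first, and its log2 fold change was 1.57 ± 0.54 more positive in G-MDSCs (adjusted p = 0.970, edgeR), at 3.11 to 5.34 CPM in 3 WT G-MDSC libraries and 1.35 in the other. Dnajb11 followed with 0.67 ± 0.26. The difference was positive for 30 of the 35 genes and for 5839 of the 10696, and for 20 and 21 of the 35 without WT replicate 2 or Nlrp3-/- replicate 1 of the M-MDSCs, respectively. The median over all genes fell as well, from 0.05 in the main fit to -0.13 in each of these fits. Over the 35 genes the median was 0.32 in the main fit and 0.13 and 0.11 in these fits.

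As a plain description, the mean log2 CPM over all 35 genes was 5.84, 6.04, 5.88 and 6.03 in WT M-MDSCs and 5.67, 5.56, 5.55 and 5.67 in Nlrp3-/- M-MDSCs, with no overlap and a difference of -0.33. In G-MDSCs it was 5.53, 5.46, 5.71 and 5.67 in WT and 5.81, 5.63, 5.62 and 5.60 in Nlrp3-/- mice, with overlap and a difference of 0.08. That difference is no larger than the shift of 0.09 by which the scaling over 16 libraries moves levels against fold changes here. These means weigh genes of a few CPM, such as Trib3 and Asns, like the abundant ones.

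Among 209 other listed genes of the pathway, 4 of 182 tested were higher and 8 lower in Nlrp3-/- M-MDSCs, where 3.51% and 7.10% of all genes were. In Nlrp3-/- G-MDSCs 9 of 174 were higher and 14 lower, where 4.70% and 11.7% of all genes were. The co-chaperone Dnajb12, anchored in the ER membrane, was at 32.4 ± 6.65 CPM in WT and 9.98 ± 3.32 CPM in Nlrp3-/- M-MDSCs and at 26.6 ± 4.58 against 6.82 ± 1.71 CPM in G-MDSCs (SD, n = 4). Its log2 fold changes were -1.69 ± 0.26 and -2.03 ± 0.28 (adjusted p = 0.00413 and 0.000313). In M-MDSCs Ufl1 (-1.11), the ligase of the UFM1 modifier, Ubxn4 (-0.85), Tmx4 (-0.89) and Nars (-0.67) were also lower, and Bbc3 (0.87), Tmx1 (0.63), Man1b1 (0.75) and Ddrgk1 (0.67) were higher.

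In G-MDSCs the lowest p among these genes was that of Sesn2, a stress-induced gene and ATF4 target, which had 39.8 ± 12.8 CPM in WT and 3.57 ± 2.48 CPM in Nlrp3-/- mice (log2 fold change -3.53 ± 0.48, adjusted p = 0.000269). Eprs (-1.20), the transfer RNA synthetase for glutamate and proline, Dnajb14 (-1.12) and Srpr (-1.72), the receptor of the signal recognition particle, were lower as well. Higher were Bbc3 (1.00), which encodes the cell death protein PUMA, the retrieval receptor gene Kdelr1 (0.71), the glucosidase gene Mogs (0.95), Cnpy3 (0.80) and the ATF6 relative Atf6b (0.65). The 36 tested genes of the integrated stress response had a median log2 fold change of -0.22 in M-MDSCs and -0.28 in G-MDSCs, with 0 higher and 2 lower in the first and 2 higher and 4 lower in the second. Of all genes tested, 3.51% were higher and 7.10% lower in M-MDSCs and 4.70% and 11.7% in G-MDSCs.

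The second comparison set G-MDSCs against M-MDSCs of the same mice. In each genotype both lectin chaperones, 3 of 5 oxidoreductases and 2 of 3 translocon genes were lower in G-MDSCs. Of the 7 lumenal chaperones and co-chaperones, 5 were lower and 1 higher in WT and 3 lower and 2 higher in Nlrp3-/- mice. Eif2ak3, Ddit3, Asns and Dnajb9 were higher in both genotypes, while Atf4 and Xbp1 were called in neither. In WT mice 14 of 34 genes tested were lower, where 27.1% of 9739 genes were, and 4 were higher, where 26.3% were. In Nlrp3-/- mice 13 of 34 were lower, where 27.4% of 10071 genes were, and 6 were higher, where 23.7% were. The median log2 fold change was -0.55 and -0.41 over the 34 genes against -0.05 and -0.12 over all genes, and 12 of the 34 genes were lower and 4 higher in both genotypes, where 22.3% and 21.4% of the 9503 genes tested in both were. By library size alone the split was 1 higher and 24 lower in WT and 2 higher and 23 lower in Nlrp3-/- mice. The median of all genes was then -0.79 and -0.83, and 12% of all genes were higher and 52% lower in WT and 11.4% and 50% in Nlrp3-/- mice. The 35 genes took 0.506 to 0.616% of the counts of M-MDSC libraries and 0.269 to 0.365% of those of G-MDSC libraries. These shares are unscaled, and by library size alone the median of all genes was lower in G-MDSCs too, as given above.

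The largest difference among the chaperones was that of Sdf2l1, a partner of BiP and ERdj3 (Dnajb11). It had 32.0, 17.0, 24.3 and 32.2 CPM in WT M-MDSCs and 3.34, 4.06, 2.91 and 1.95 CPM in WT G-MDSCs, a log2 fold change of -3.08 ± 0.31 (adjusted p = 6.55e-06). In Nlrp3-/- mice the values were 22.0, 17.6, 25.1 and 23.5 CPM against 6.70, 3.95, 6.22 and 3.93 CPM, and the log2 fold change was -2.19 ± 0.30 (adjusted p = 2.91e-05). The subsets did not overlap in either genotype.

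Hsp90b1, with the values given above, was lower in G-MDSCs by a log2 fold change of -1.56 ± 0.18 in WT (adjusted p = 1.75e-05) and -1.27 ± 0.31 in Nlrp3-/- mice (adjusted p = 0.00349), where Nlrp3-/- replicate 1 of the G-MDSCs overlapped the M-MDSCs. Dnajc3 was lower by -0.93 and -1.02. Hyou1 (-1.98) and Dnajb11 (-0.90) were lower in WT mice and were not called in Nlrp3-/- mice (-0.54 and -0.35). Against these, Hspa5 was higher in G-MDSCs of Nlrp3-/- mice by 0.84 ± 0.18 (adjusted p = 0.00128), and in WT mice it had 0.50 ± 0.19, which passed the adjusted p (0.0409, edgeR) and not the fold minimum, and which was -0.24 by library size alone. Dnajb9, which encodes ERdj4, a regulator of IRE1, was also higher, at 7.43 to 14.8 against 15.7 to 34.9 CPM in WT and 5.22 to 16.4 against 17.6 to 39.97 CPM in Nlrp3-/- mice, with log2 fold changes of 1.18 and 1.10. Without Nlrp3-/- replicate 2 of the M-MDSCs or replicate 1 of the G-MDSCs the second call was lost (adjusted p = 0.0676 and 0.0831, edgeR). By library size alone the calls of Hspa5 in Nlrp3-/- mice and of Dnajb9 in both genotypes were lost.

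Canx had 231, 166, 157 and 200 CPM in WT M-MDSCs and 87.5, 74.1, 71.0 and 79.8 CPM in WT G-MDSCs, and 148, 160, 203 and 161 against 61.2, 57.5, 52.0 and 53.0 CPM in Nlrp3-/- mice. All G-MDSC libraries were lower, by -1.27 ± 0.17 and -1.70 ± 0.16 on the log2 scale. Calr was lower by -0.93 and -0.68. Of the 5 oxidoreductases, Pdia6 (-1.83 and -1.42), Pdia3 (-1.13 and -1.32) and P4hb (-1.04 and -0.75) were lower in both genotypes, and Pdia4 and Ero1l, the oxidase that recharges them, were not called. Nlrp3-/- replicate 4 of the G-MDSCs had 147 CPM of P4hb, within the M-MDSC range of 133 to 163 CPM, and the other three 79.0 to 80.4 CPM.

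Manf, a secreted factor induced by ER stress, had 34.7, 63.8, 50.8 and 44.5 CPM in WT M-MDSCs and 3.34, 11.8, 17.7 and 13.2 CPM in WT G-MDSCs, a log2 fold change of -2.06 ± 0.37 (adjusted p = 0.000482). In Nlrp3-/- mice it had 44.4, 23.7, 12.5 and 32.4 against 23.3, 11.8, 11.6 and 16.8 CPM and -0.96 ± 0.37 (adjusted p = 0.0389), a call lost without M-MDSC replicate 1 or 4 or G-MDSC replicate 2, 3 or 4 (adjusted p = 0.077 to 0.139, edgeR). Creld2 was not called. The translocon genes Sec61a1 (-0.88 and -0.89) and Ssr1 (-0.65 and -0.86) were lower, the WT call of Ssr1 missing the fold minimum without G-MDSC replicate 3 (-0.58). Sec61b had -0.89 in WT mice and was not called, but with the mouse as a pairing factor it was (-1.02, adjusted p = 0.00738, edgeR), as it was by library size alone (-1.62).

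**Figure D3:**
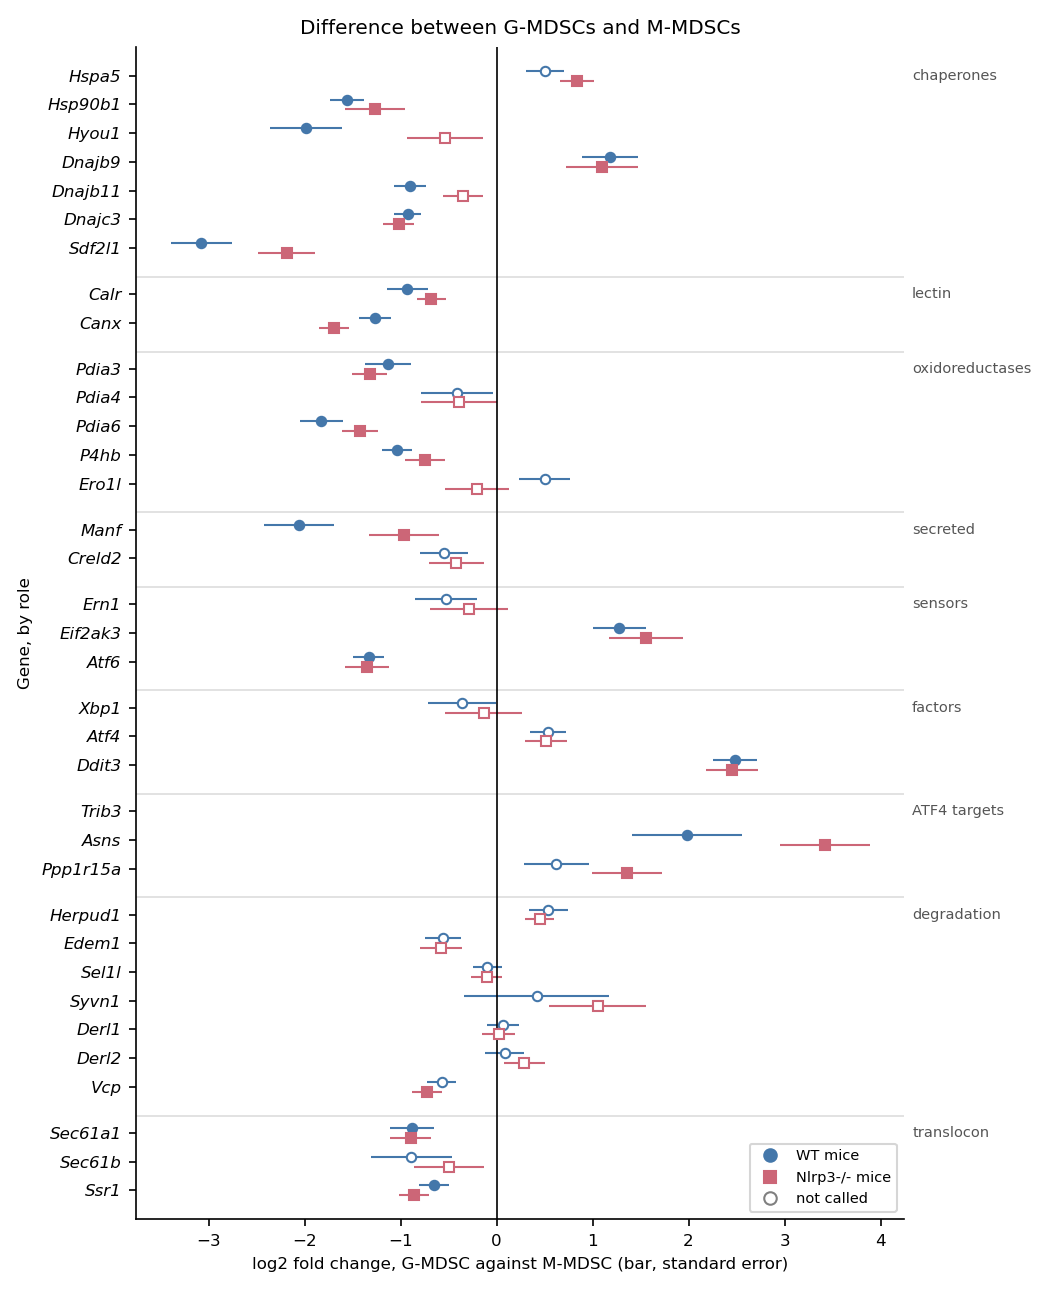
Log2 fold change of G-MDSCs against M-MDSCs for each gene by role, in WT (circles) and Nlrp3-/- (squares) mice, with standard errors; filled symbols passed the adjusted p and the fold minimum. Values run from -3.08 (Sdf2l1, WT) to 3.42 (Asns, Nlrp3-/-), with chaperones, oxidoreductases and translocon genes mostly to the left and the ATF4 and CHOP genes to the right.

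The sensors went different ways. Atf6 was lower in G-MDSCs (-1.33 ± 0.16 and -1.35 ± 0.23), Ern1 was not called, and Eif2ak3, the gene of PERK, was higher. Eif2ak3 had 12.4, 19.8, 20.5 and 20.2 CPM in WT M-MDSCs and 33.7, 27.4, 53.3 and 62.3 CPM in WT G-MDSCs, with a log2 fold change of 1.28 ± 0.28 (adjusted p = 0.00194). In Nlrp3-/- mice the values were 17.6, 13.5, 7.94 and 4.11 against 41.4, 36.8, 39.6 and 20.7 CPM, with 1.56 ± 0.39 (adjusted p = 0.00353). The subsets did not overlap.

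Of Atf4, Ddit3 and Ppp1r15a, the abundant genes downstream of PERK among the members, Ddit3, which encodes CHOP, had the largest difference. In WT mice the M-MDSC values of 46.9 to 69.6 CPM stood against 218 to 452 CPM in G-MDSCs, a log2 fold change of 2.48 ± 0.23 (adjusted p = 2.88e-06). In Nlrp3-/- mice 31.8 to 94.4 CPM stood against 345 to 465 CPM, a log2 fold change of 2.45 ± 0.27 (adjusted p = 3.58e-06). Both calls held in all 18 alternative fits. Atf4 had 0.53 ± 0.19 and 0.52 ± 0.22, under the fold minimum in both genotypes (edgeR adjusted p = 0.0268 and 0.0573). Scaled by library size, it had -0.22 and -0.20.

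Asns, asparagine synthetase, had 1.49, 7.87, 0.892 and 1.71 CPM in WT M-MDSCs and 11.4, 18.95, 10.9 and 9.34 CPM in WT G-MDSCs, a log2 fold change of 1.99 ± 0.57 (adjusted p = 0.0107). In Nlrp3-/- mice it had 0.814, 0.682, 2.09 and 0.642 against 11.6, 11.6, 12.4 and 12.1 CPM, a log2 fold change of 3.42 ± 0.47 (adjusted p = 2.99e-05). Only WT replicate 2 of the M-MDSCs came near the G-MDSC range, and without it the log2 fold change in WT mice was 3.17. This library had the neutrophil sum of 8727 CPM given above, where the other three WT M-MDSC libraries had 1415 to 1847 CPM, and the part of these genes in its Asns level was not tested. Trib3, a CHOP target, was at or near 0 in M-MDSCs (0 to 1.41 CPM) and at 1.85 to 4.14 CPM in G-MDSCs, and it did not pass the filter in either genotype. Ppp1r15a was higher in Nlrp3-/- G-MDSCs, at 146 to 356 against 34.7 to 126 CPM (1.36 ± 0.36, adjusted p = 0.00591). In WT mice its values of 150 to 368 and 78.4 to 249 CPM overlapped (0.62 ± 0.34, adjusted p = 0.138), and with the mouse as a pairing factor the gene was called (0.65, adjusted p = 0.0255, edgeR). By library size alone the calls of Eif2ak3 in both genotypes, of Asns in WT (1.27, adjusted p = 0.0587, edgeR) and of Ppp1r15a in Nlrp3-/- mice were lost.

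**Figure D4:**
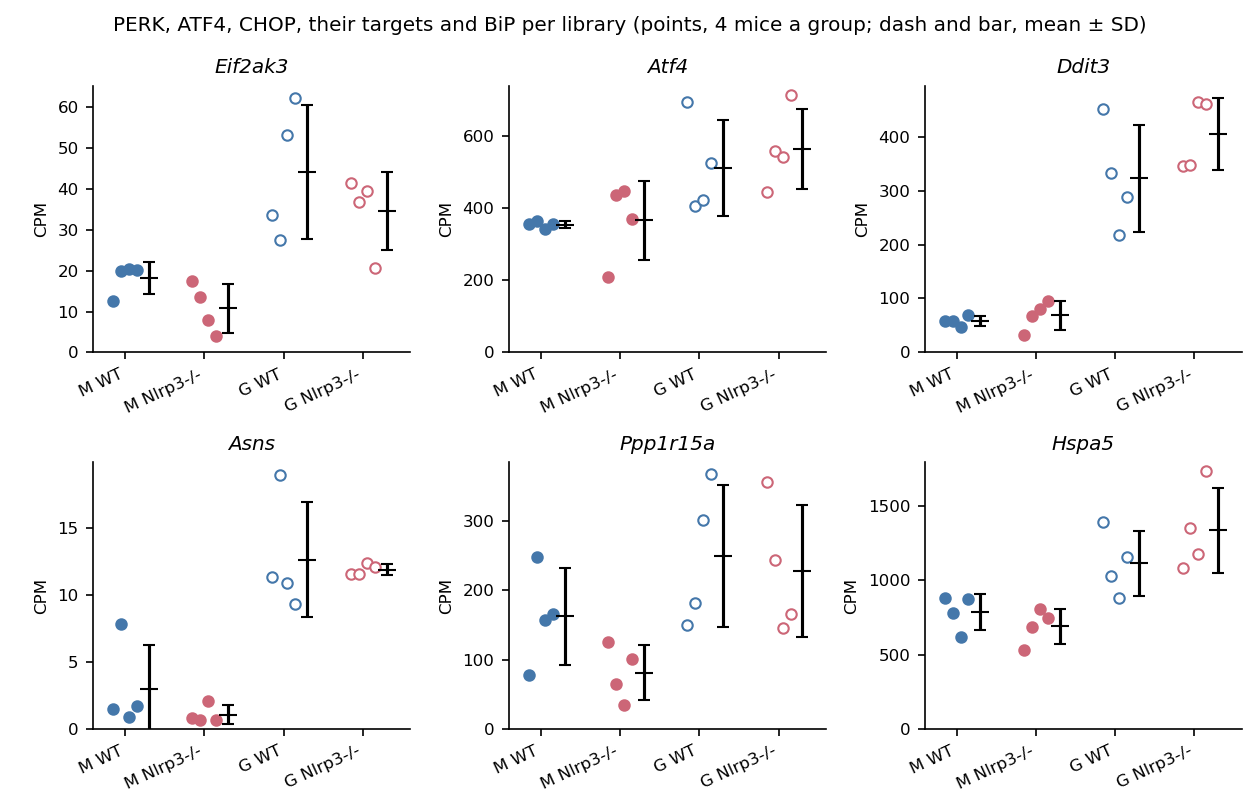
CPM of Eif2ak3, Atf4, Ddit3, Asns, Ppp1r15a and Hspa5 in each library (4 mice per group, M-MDSCs filled and G-MDSCs open; dash and bar, mean ± SD of the 4 libraries). Ddit3 spans 31.8 to 94.4 CPM in the 8 M-MDSC libraries and 218 to 465 CPM in the 8 G-MDSC libraries, while the Atf4 libraries of the subsets overlap in Nlrp3-/- mice. The lower error bar of Asns in WT M-MDSCs ends at the axis.

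Of the 7 genes of ER-associated degradation, 0 were called in WT mice by edgeR or by DESeq2. By edgeR 3 had an unadjusted p under 0.05 there, a count given without the share of all genes under that p. Vcp alone was called by edgeR in Nlrp3-/- mice (-0.73 ± 0.15, adjusted p = 0.00124). By library size alone, with all genes shifted as given above, Derl1, Edem1, Sel1l and Vcp were lower in both genotypes (-1.44 to -0.68) and Derl2 in WT mice (-0.66). Derl1, Derl2 and Sel1l had log2 fold changes of -0.10 to 0.29 in both genotypes. Edem1, which marks chains for removal, had -0.56 and -0.58 and Herpud1 0.54 and 0.45, each past the adjusted p and under the fold minimum. With the mouse as a pairing factor Edem1 (-0.61, adjusted p = 0.00777) and Syvn1 (1.27, adjusted p = 0.00215) were called by edgeR in Nlrp3-/- mice.

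Other listed genes of the pathway were also compared by role. Of all genes tested, 26.3% were higher in G-MDSCs and 27.1% lower in WT mice, and 23.7% and 27.4% in Nlrp3-/- mice. By library size alone 52% and 50% of all genes were lower, and these lists were not followed under that scaling. Of 40 other translocon, signal peptidase and N-glycosylation genes tested in WT mice, 28 were lower in G-MDSCs and 0 higher, with a median log2 fold change of -0.94, and in Nlrp3-/- mice 24 of 41 were lower and 1 higher. Of 38 other chaperones and folding enzymes, 21 were lower and 3 higher in WT and 18 lower and 4 higher in Nlrp3-/- mice. Other degradation genes gave 9 higher and 3 lower of 42 in WT and 10 higher and 7 lower of 43 in Nlrp3-/- mice. Integrated stress response genes were split, with 7 higher and 14 lower of 38 in WT and 6 higher and 13 lower of 37 in Nlrp3-/- mice.

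Within that last list the ends were far apart. Slc7a11, the cystine transporter that ATF4 induces, had 9.05 ± 3.48 CPM in WT M-MDSCs and 173 ± 6.90 CPM in WT G-MDSCs (log2 fold change 4.22 ± 0.24, adjusted p = 7.03e-08), and 4.31 ± 0.28 in Nlrp3-/- mice. Chac1, a glutathione-degrading CHOP pathway gene, had 0.484 ± 0.352 and 41.8 ± 13.03 CPM in WT and 0.808 ± 0.537 and 52.4 ± 14.1 CPM in Nlrp3-/- mice. Nupr1, also an ATF4 target, went the other way with 75.5 ± 17.1 CPM in WT M-MDSCs and 90.5 ± 13.6 CPM in Nlrp3-/- M-MDSCs against 0.326 ± 0.0611 and 0.309 ± 0.617 CPM in G-MDSCs, below the level of 3 counts (SD, n = 4 for each), and no fold is given for these 2 genes. Other genes named by the smallest p were Jdp2 (3.64 in Nlrp3-/- mice) and Qsox1 (2.19 in WT mice) on the higher side, and Rpn2 (-2.13 and -2.21), Krtcap2 (-2.50 in Nlrp3-/- mice) and Itpr1 (-2.69 in WT mice), the calcium channel of the ER, on the lower side.

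A last feature was the variation between mice of one group. The median within-group SD of the 35 genes was 0.34 on the log2 scale, against 0.42 over 10696 genes, but Syvn1, the HRD1 ubiquitin ligase of degradation, had an SD of 1.42, followed by Sec61b (0.78), Xbp1 (0.72), Manf (0.70) and Asns (0.69). Syvn1 had 2.04, 27.8, 29.6 and 18.8 CPM in WT and 29.5, 7.34, 4.18 and 15.5 CPM in Nlrp3-/- M-MDSCs, and 3.67, 7.78, 50.6 and 42.4 against 50.1, 41.2, 18.2 and 21.2 CPM in G-MDSCs. Single mice of a group thus lay far apart, while the unpaired fits called Syvn1 in none of the 4 comparisons.

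These genes deviated together. Relative to the group means, Sec61b lay on the same side as Syvn1 in 16 of 16 libraries, Xbp1 in 15 and Manf in 12, whereas Asns did so in 4. These 5 genes were singled out after their values were seen, for their spread, and the counts are given without a test. In both subsets WT replicate 1 and Nlrp3-/- replicate 3 lay below their group means for Syvn1, Sec61b, Xbp1 and Manf, and Nlrp3-/- replicate 1 lay above them. Over all mice, 5 of 8 deviated the same way in both subsets for Syvn1 and for Sec61b, 4 of 8 for Xbp1 and 7 of 8 for Manf. The correction for GC content and length left the SD of Syvn1 at 1.48. In WT replicate 1, where Syvn1 was lowest in both subsets, the B and plasma cell sum was the lowest of its group in M-MDSCs (257 CPM) and the highest in G-MDSCs (415 CPM).

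**Figure D5:**
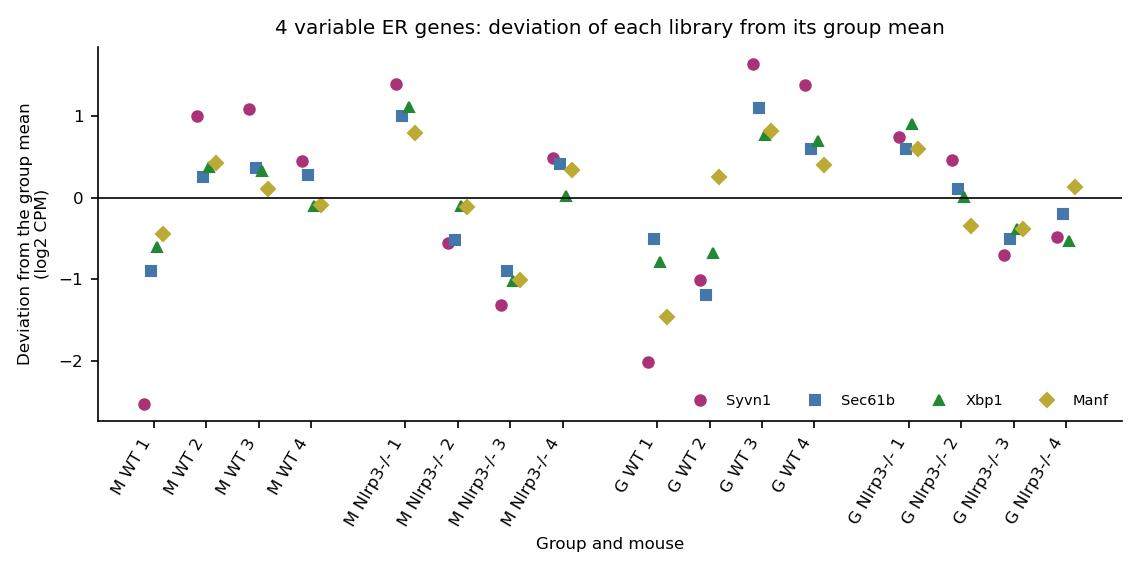
Deviation of each library from its group mean (log2 CPM) for Syvn1, Sec61b, Xbp1 and Manf, by group and mouse, the same number within a genotype being the same mouse. Syvn1 and Sec61b lie on the same side of 0 in all 16 libraries, with Syvn1 reaching -2.53 in WT M-MDSC replicate 1.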

How the data were processed

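Messenger RNA of sorted M-MDSCs and G-MDSCs from 8 tumor-bearing mice was sequenced from its 3′ end with QuantSeq, and 1 table of counts per gene symbol was used for each of 16 libraries. Per the submitters' processing notes, the authors aligned reads to mm10 with HISAT2 2.1.0, counted them per gene with HTSeq and used edgeR 3.14.0. The deposited counts were raw whole numbers, and the study's methods state strand-specific counting. PCR ran for 15 or 17 cycles, by library, and the libraries are not told apart in the sources used here. Each library came from 1 mouse, so p-values between genotypes within a subset measure the spread between mice. The main subset fits and the model of 16 libraries held both libraries of each mouse without a mouse term. Their p-values therefore do not measure the spread of the differences within mice.

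Counts were filtered with filterByExpr, scaled by TMM and tested with edgeR 4.0.16 (limma 3.58.1, R 4.3.3) by the quasi-likelihood test, each comparison in its own 8 libraries and the difference of genotype effects in all 16. A call needed a Benjamini-Hochberg adjusted p under 0.05 over all genes tested and a fold change over 1.5, and CPM used a prior count of 2 on the log2 scale only. Fold changes used each comparison's own scaling and levels a scaling over 16 libraries, which shifts differences of levels against the fold changes by -0.03 to 0.11 on the log2 scale. Alternatives were DESeq2 1.42.0, its size factors, library size only, other filters and prior counts, a replicate block, a correction for GC content and transcript length, and leaving out each library. The members and gene lists were chosen with earlier results of these data known, and the 2 GC corrections of the model of 16 libraries were added after the data were seen. Named by rule were all 35 members, with values per library for those called between genotypes and for Hspa5, Hsp90b1, Calr, Xbp1, Atf4 and Ddit3, and of the other pathway genes those with the smallest p, up to 5 per direction between genotypes and up to 3 between subsets. Other genes with values per library were chosen after their values were seen.

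Replicate numbers mark the same mouse in both subsets by the labels, and deviations from the group means of same-mouse libraries correlated at 0.01 to 0.45 (mean 0.27 in WT and 0.19 in Nlrp3-/- mice), so subset comparisons are also given with the mouse as a block where that changed a call. On simulated counts with 200 genes changed 3-fold, 87.5% and 86.5% were recovered in the genotype comparisons of M-MDSCs and G-MDSCs. In the subset comparisons of WT and Nlrp3-/- mice 86% and 81.5% were recovered. False calls made up 3.31% and 5.98% of the calls in these genotype comparisons and 5.49% and 1.21% in these subset comparisons. All genotype calls among the ER genes described here were smaller than 3-fold. The simulations therefore do not show how often differences as small as those are recovered. GC content and transcript length came from the longest GENCODE transcript of each symbol (23376 symbols matched directly and 670 by an older symbol). Promoter sequences and their locations came from the RefSeq promoter table of GRCm38.p6. Figures used matplotlib 3.10.9 in Python 3.11.15.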

Additional observations from a re-analysis of the deposited data

Results flagged for a closer look

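In each of 140 sets of 4 libraries (35 genes in 4 groups) the most distant library was compared with Dixon's criterion, by which chance alone gives about 5% of sets, and 8 sets had such a library. In Nlrp3-/- G-MDSCs, replicate 4 was apart for Pdia3 (64.3 CPM, the others 52.7 to 53.9), P4hb (147 CPM, the others 79.0 to 80.4) and Eif2ak3 (20.7 CPM, the others 36.8 to 41.4), and replicate 2 for Pdia4 (5.68 CPM, the others 12.6 to 13.6). In WT M-MDSCs, replicate 1 was apart for Eif2ak3 (12.4 CPM, the others 19.8 to 20.5) and Sec61b (55.6 CPM, the others 124 to 134), and replicate 4 for Pdia6 (181 CPM, the others 108 to 118). In WT G-MDSCs, replicate 2 was apart for Vcp (174 CPM, the others 130 to 135).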

How the results depend on the processing

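Each of the 35 genes called in a comparison kept its direction in that comparison's alternative fits, in which the other pathway genes were not followed. The number called between genotypes was 4 in M-MDSCs and 5 in G-MDSCs, and it was 2 and 3 with the correction for GC content and length, with 3 calls lost and Sel1l gained in each subset. Of all genes tested, 10.6% and 16.4% were called in the main fits and 6.65% and 10.3% with this correction. Same-numbered libraries of the genotypes did not deviate together (correlations of -0.49 to 0.03 in M-MDSCs and -0.33 to -0.05 in G-MDSCs), so the numbers pair no mice between genotypes. With the replicate block 1 and 3 genes were called, where 4.26% and 10.6% of all genes were. With the block and the GC correction together 0 and 2 were called, where 0.831% and 4.91% of all genes were. Leaving out 1 library gave 0 to 9 calls in M-MDSCs, with 0 without WT or Nlrp3-/- replicate 4 and 9 without Nlrp3-/- replicate 1, while 4.64%, 4.44% and 17.6% of all genes were called in these 3 fits. In G-MDSCs it gave 2 to 5 calls, with 2 without Nlrp3-/- replicate 2 or 3, where 11.7% and 13% of all genes were called. In the subset comparisons it gave 19 to 22 calls in WT and 18 to 21 in Nlrp3-/- mice, where 48.8% to 52.3% and 46.9% to 49.8% of all genes were called. For the difference of genotype effects it gave 0 in each fit. With the mouse as a block the subset comparisons gained Sec61b and Ppp1r15a in WT and Edem1 and Syvn1 in Nlrp3-/- mice and lost none.

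The difference of the mean over the 35 genes moved from -0.33 to -0.22 between genotypes in M-MDSCs by library size alone, and between subsets from -0.36 to -1.08 in WT and from 0.05 to -0.76 in Nlrp3-/- mice, and over the 31 genes with at least 10 counts in every library the last was -0.0492. The value of 0.05 is below the shift of 0.11 between levels and fold changes in that comparison. Without 1 library the differences of the mean ranged from -0.37 to -0.30 and from 0.03 to 0.11 between genotypes in M-MDSCs and G-MDSCs, and from -0.40 to -0.31 and from 0.002 to 0.07 between subsets in WT and Nlrp3-/- mice. Directions turned for uncalled genes only, and the number of genes with a positive difference was 18 in G-MDSCs and 14 with the GC correction, and 11 in M-MDSCs, 9 by DESeq2 and 13 by library size alone. Genes with differences near 0, such as Canx, Syvn1, Derl1 and Derl2, turned in single fits too, and values follow for the genes followed singly. For Atf4 between genotypes the values were -0.26 in M-MDSCs and -0.33 in G-MDSCs with the GC correction and -0.30 and -0.32 with the block added, -0.0675 and -0.0383 without M-MDSC Nlrp3-/- replicate 2 or 3 (0.2241 at most without another library), and -0.0303, -0.0084 and -0.0619 without G-MDSC WT replicate 2 or 3 or Nlrp3-/- replicate 4 (0.2256 at most). By library size alone, between subsets, Atf4 had -0.22 and -0.20, and in WT mice Hspa5 had -0.24 and Ppp1r15a -0.10. Xbp1 between subsets in Nlrp3-/- mice had 0.39 without M-MDSC replicate 1 and 0.02 and 0.04 without G-MDSC replicate 3 or 4, and -0.5231 at the lowest without G-MDSC replicate 1. The cause was not tested. Genes of a few CPM, such as Trib3, Asns, Hyou1 and Sdf2l1 in some groups, rest on few counts, which limits what their differences can show.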

Other observations

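Calls among the 8 genes with an ERSE match in the promoter window were 0 higher and 2 lower between genotypes in each subset, where 7.10% of all genes tested in M-MDSCs and 11.7% in G-MDSCs were lower. Of the members with a promoter entry and no match, 0 were higher and 1 lower of 20 in M-MDSCs and 1 higher and 1 lower of 22 in G-MDSCs. Between subsets the 8 genes gave 0 higher and 5 lower in WT and 1 higher and 5 lower in Nlrp3-/- mice, where 27.1% and 27.4% of all genes were lower, and the members without a match 4 higher and 5 lower of 21 and 5 higher and 5 lower of 21. The shorter motif CCACG, which every ERSE match holds, was in 76.7% of the 30 promoters, in 57.3% of those of the other pathway genes and in 32.2% of all promoters. These counts are a description, since the match says nothing of binding.

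Averaged over the 3 ATF4 and CHOP targets, of which Trib3 and Asns stood at a few CPM, the mean log2 CPM per library in G-MDSCs was 4.23 to 4.59 for WT mice and 4.28 to 4.41 for Nlrp3-/- mice, so the genotypes overlapped. In M-MDSCs it was 2.43 to 3.96 for WT mice and 1.63 to 2.13 for Nlrp3-/- mice, without overlap, at levels of Trib3 and Asns that rest on few counts.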
